A study of Rattus norvegicus with 24 samples.

Results

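The potassium channel genes of rat dorsal root ganglion (DRG) neurons were described gene by gene, across neuron types, by the level of the injury gene Sprr1a and across the surgical groups. A gene was taken as a member when its symbol starts with Kcn and its mean was at least 1 CPM (UMIs of the gene per 1000000 UMIs of the cell) over the 1433 cells that passed quality control. Of 92 Kcn genes among the 32881 genes shared by all libraries, 57 were members. The members just inside the limit were Kcnrg at 1.165, Kcnj6 at 1.17 and Kcne2 at 1.275 CPM, and the genes just outside it were Kcnv2 at 0.790, Kcnh4 at 0.729 and Kcnk13 at 0.716 CPM.

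Single L4 and L5 DRG neurons of male Sprague-Dawley (SD) rats without any named genetic change were studied, and their polyadenylated RNA was sequenced with unique molecular identifiers (UMIs), so that each value is a number of molecules. The labels give every library the same protocol, in which dye-labelled neurons were picked by hand, and only the labels of the first set, called labelled here, count the neurons of each dye. The dyes had been injected into branches of the sciatic nerve before surgery. The groups were 4 sham samples, in which the nerve was exposed only, and 4, 3 and 5 samples taken 1, 3 and 7 days after spared nerve crush (SNC), in which the tibial and common peroneal branches were crushed and the sural branch was spared. In a further set of 7 libraries, called added sham here, 3 were from day 0, 2 from day 1, 1 from day 3 and 1 from day 7. Several rats were taken at each time point, but their age and the number in each sample are not given in the sources used here, so p-values measure the spread between samples, which may share animals. The dye of a cell is not in its name, so neurons with crushed and with spared axons were not told apart, and every SNC sample holds both.

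Potassium channels let potassium leave the neuron, which sets the resting potential, ends the action potential and limits repetitive firing. Voltage-gated (Kv) channels open on depolarization. Kv1 channels delay firing and lie beside the nodes of myelinated axons, Kv2 and Kv3 channels repolarize, Kv4 channels carry the fast A-type current, and Kv7 channels carry the slow M-current. Silent Kv subunits form channels only together with Kv2, and the auxiliary KChIP and Kv beta subunits bind Kv4 and Kv1 channels. Two-pore channels carry leak current, and the channels gated by calcium or sodium couple firing to the entry of those ions. In sensory neurons a loss of potassium current is known to raise excitability.

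The members included 5 Kv1, 2 Kv4, 2 Kv7 and 6 Kv10-12 genes, 6 silent Kv subunits, 9 auxiliary subunits (3 KChIP, 2 Kv beta, 2 MinK-related and 2 BK beta), 3 calcium-activated and 2 sodium-activated channels, 7 inward rectifiers, 9 two-pore channels and Kcnrg, a regulator. A molecule counts once whatever its length, so CPM values were compared between genes without dividing by length. The highest mean over all cells was that of Kcna2 (Kv1, ENSRNOG00000018285) at 197.8 CPM, followed by Kcnd1 (Kv4, ENSRNOG00000039544) at 197.2, Kcna6 (Kv1) at 147.7 and Kcna1 (Kv1) at 110.3 CPM. Kcnip4 (98.5), Kcnip1 (95.6), Kcnd3 (94.5), Kcnab1 (88.2), Kcnh2 (72.9) and Kcnq5 (64.3 CPM) completed the 10 most abundant members. Summed over members, the Kv1 genes came to 504 CPM, the Kv4 genes to 291.8, the KChIP subunits to 199.4 and the two-pore channels to 189.2 CPM, against 50.1 CPM for the 7 inward rectifiers.

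Total counts were 4002503 to 28975829 UMIs per labelled sample (24 to 96 cells) and 14004136 to 40732975 per added library (44 to 96 cells). The same 96 cell barcode names recur in more than 1 library, and no 2 cells held the same values. The summed level of 5 neuron markers was 4413 to 6008 CPM in labelled samples and 3437 to 4149 CPM in added libraries, and that of 8 glial markers was 328 to 1482 and 145 to 1604 CPM, so glial RNA was present in both sets. The 8 injury genes (Atf3, Sprr1a, Sox11, Gal, Gap43, Jun, Ecel1 and Npy) summed to 2780 to 6588 CPM in labelled sham, 2583 to 4484 CPM after SNC and 705 to 1141 CPM in added sham. Samples Xin and 19-2 and libraries S1 and S2 were poorest in the 10 markers of large myelinated (NF) neurons, at 1455, 1253, 1198 and 1299 CPM, against 2155 to 7364 CPM in all others. Their part in the results below was not tested except where a value is given.

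The levels of potassium channel genes differed between neuron types. In labelled cells an NF-like cluster held the highest level of 21 of 57 members and a nonpeptidergic (NP)-like cluster that of 10, while 0 were highest in PEP1-like neurons. Of the 21 genes 14 were highest in the matching cluster of added cells too. Of the 10 genes 1 was, though there another added cluster matched nearly as well. The 930 labelled cells fell into 10 clusters (L0 to L9) and the 503 added cells, clustered on their own, into 8 (A0 to A7), with all Kcn genes kept out of the clustering. The labelled clusters were PEP1-like, PEP2-like and PEP3-like peptidergic neurons (L1, L0 and L2), 2 NF-like clusters led by Shox2 (L3) and S100a16 (L4), 2 SST-like clusters led by Fezf2 (L5) and Sst (L7), NP-like neurons (L6), cold-like neurons with Trpm8 (L9) and an unnamed cluster high in 7 of 8 glial genes (L8). Of the added clusters, A1 was NF-like, A3 NP-like and A6 SST-like, and the others could not be named from the markers. By their expression of 10614 genes, 4 pairs of clusters matched each other best: L3 with A1 (Spearman's rho across genes 0.677), L7 with A6 (0.548), L4 with A0 (0.486) and L6 with A4 (0.482). For L4 the rho with NF-like A1 was nearly as high, at 0.466, and L4 was high in 4 of the 10 NF markers against 8 in L3. For L6 the rho was 0.459 with NP-like A3 and 0.389 with A2. Of the genes highest in L6, Kcna3, Kcnab2 and Kcnj5 were highest in A3 among added clusters. Kcnj11, Kcnk7 and Kcnma1 were highest in A2, and Kcnd3, Kcnf1 and Kcnip4 in A7. Levels by type are the mean CPM per cell, as mean ± SD over samples with at least 3 cells of the type. They are a description, since the clusters were made from the same cells. Counts of members highest in a cluster, or apart beyond the SD, were not made over all genes. Whether potassium channel genes stand out from other genes in these counts was not tested.

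**Figure D1:**
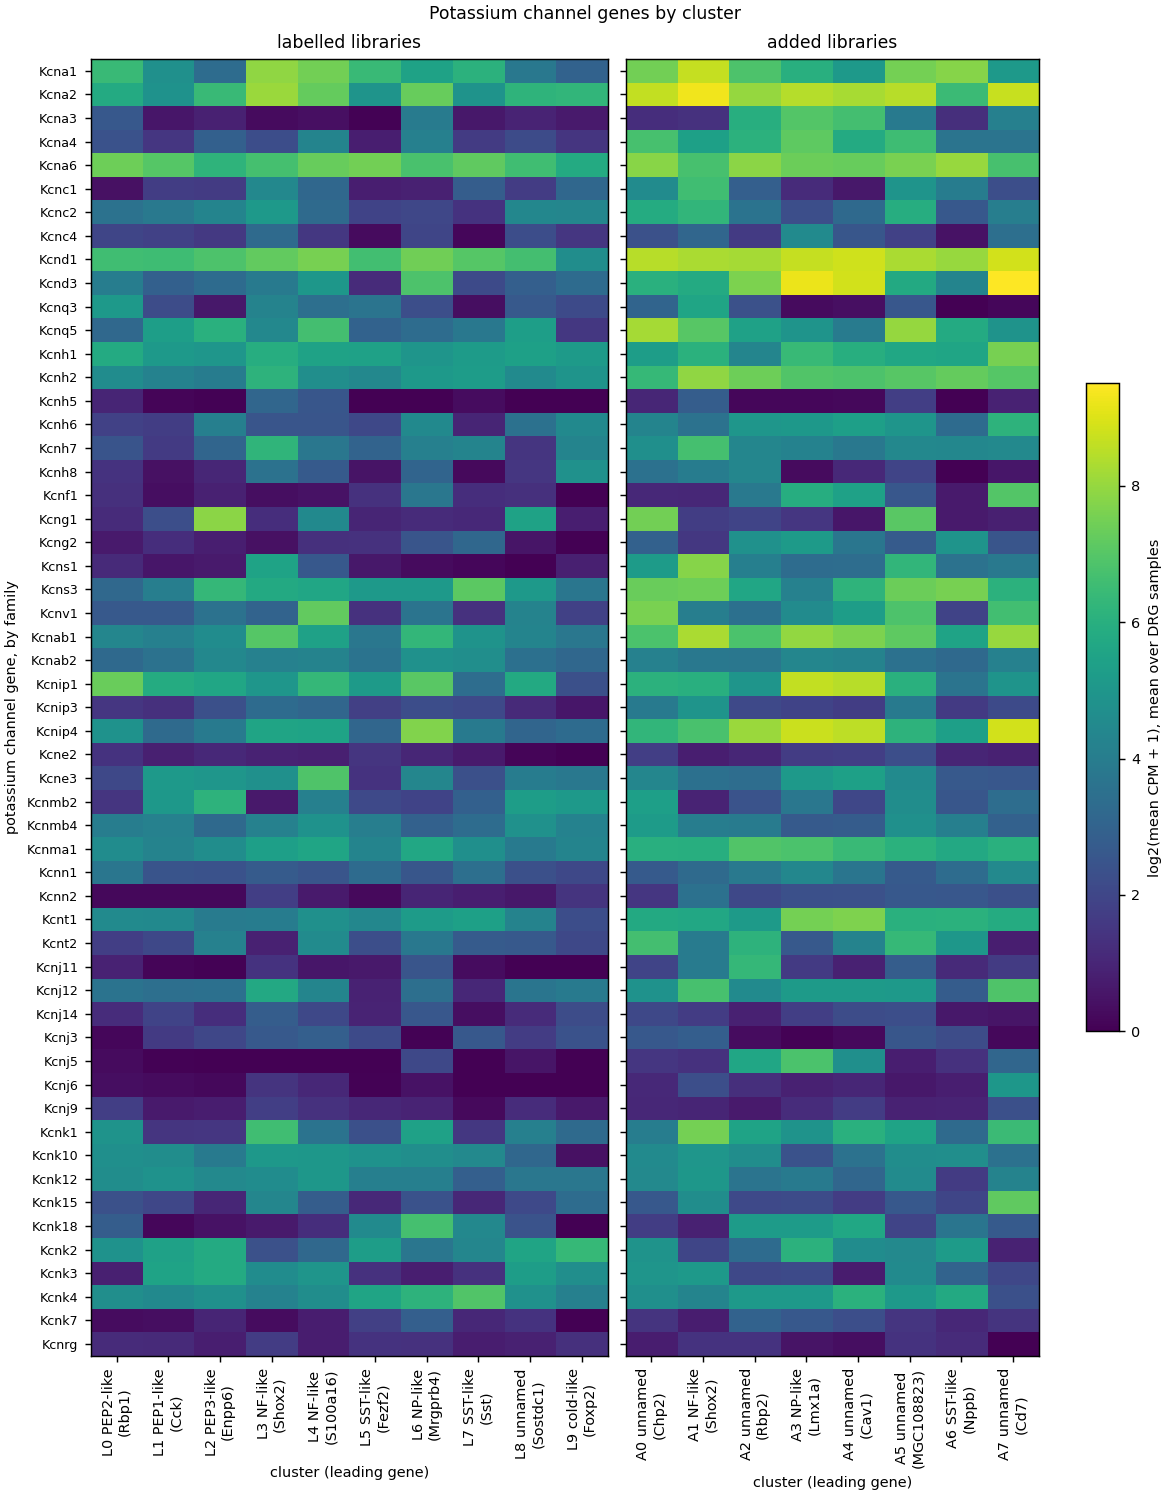
Heat map of 55 of the 57 potassium channel genes (rows, by family) in the 10 labelled and 8 added clusters (columns, with the leading gene), coloured by log2(mean CPM + 1) averaged over DRG samples. Kcna6 and Kcnd1 are bright in nearly every column, whereas Kcng1, Kcnv1 and Kcnk18 are bright in 1 or a few columns.

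The NF-like cluster L3 held the highest level of 21 of the 57 members, and its added partner A1 held that of 18. The sets shared 14 genes, among them Kcna1, Kcna2, Kcnab1, Kcnc1, Kcnc2, Kcnh2, Kcnh5, Kcnh7, Kcnip3, Kcnk1, Kcnk10, Kcnn2 and Kcns1. They include the Kv1 pair of the myelinated axon, the Kv beta gene Kcnab1 and Kv3 genes, whose channels allow fast firing. The other Kv beta gene, Kcnab2, was highest in L6 and A3. Kcna1 was 243 ± 50.9 CPM in L3 (n = 12) and 400.2 ± 50.3 in A1 (n = 5), and the next clusters were L4 at 177 ± 77.7 and A6 at 217 ± 46.9 CPM. Kcna2 was 266 ± 81.2 CPM in L3 and 629 ± 88.8 in A1, and Kcnab1 was 126 ± 56.0 and 309 ± 30.2 CPM. In L3 the level of Kcna2 overlapped within the SD with that of NP-like L6 (156 ± 59.3 CPM, n = 8), so the order of these 2 clusters is not settled by the spread. Kcnk1 (TWIK-1, a leak channel) stood apart beyond the SD in both sets, at 95.2 ± 35.5 CPM in L3 against 42.6 ± 9.60 in L6, and at 183 ± 30.9 in A1 against 88.6 ± 16.4 in A7. Kcnh7 of the Erg group did so too, at 73.0 ± 33.8 CPM in L3 and 103 ± 37.3 in A1. Kcns1, a silent subunit linked to pain sensitivity, was uneven in L3, at 44.2 ± 62.6 CPM with a range from 0 to 208 CPM over 12 samples.

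The other NF-like cluster, L4, had a distinct set. Kcnv1, a silent subunit that joins Kv2 channels, was 146 ± 56.0 CPM in L4 (n = 15) against 17.8 ± 39.8 in the next cluster, and 192 ± 42.3 CPM in the partner A0 (n = 6). Kcnmb4, Kcnq5 and Kcnt2 were also highest in both L4 and A0. Kcnq5, an M-current gene, was 99.99 CPM in L4 and 296 ± 77.9 in A0. Kcne3, a MinK-related subunit, was 116 ± 57.8 CPM in L4 but 19.6 CPM in A0, where the highest level was in A4 (41.5 ± 12.5 CPM), so this gene did not keep its place between the sets.

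Among nociceptors, the NP-like cluster L6 held the highest level of 10 members. Kcnk18 (TRESK, a leak channel of nociceptors) was 102.3 ± 48.6 CPM in L6 against 22.2 ± 10.8 in SST-like L5, and it was at 0.13 CPM in the PEP1-like and 0.38 CPM in the PEP3-like neurons. Kcnip4, which binds Kv4, was 206 ± 60.4 CPM in L6 against 46.2 ± 24.4 in L3, and Kcnd3 was 115 ± 115 CPM in L6 and at most 31.8 CPM elsewhere. Kcnf1, a silent subunit, was 12.7 ± 5.56 CPM in L6 and at most 1.56 CPM in every other labelled cluster. In the partner A4 only Kcnk18 was again the highest (49.3 ± 34.5 CPM), and it did not stand apart from A2 (36.2 ± 13.7 CPM). Kcnd3 and Kcnip4 were highest in A7 (750.1 ± 107 CPM, and a mean of 455 CPM with a range from 330.4 to 572 CPM, n = 4) and next in NP-like A3 (602 ± 108 and 423 ± 54.9 CPM, n = 7).

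The peptidergic clusters differed from each other in single genes. Kcng1, a silent subunit, was 231 ± 61.2 CPM in PEP3-like L2 (144.9 to 316 CPM over 11 samples), 3.87 in PEP1-like L1 and 1.26 CPM in PEP2-like L0, and the second level, 43.8 ± 56.7 CPM, was that of the cluster high in glial genes. Kcnmb2, a BK beta subunit, was 69.3 ± 21.5 CPM in L2, 32.8 ± 17.3 in L1 and 1.74 in L0. In added cells both genes were highest in A0, the partner of NF-like L4. Kcng1 was 176.7 ± 90.3 CPM and Kcnmb2 40.6 ± 25.2 CPM there (n = 6). Kcnk3 (TASK-1, an acid-sensitive leak channel) was 55.3 CPM in L2 and 44.7 ± 27.6 in L1, and 0.80 CPM in L0. The PEP2-like neurons held the highest Kcnip1 (159.6 ± 53.0 CPM) and Kcnq3, an M-current gene (33.0 ± 18.0 CPM). In added cells Kcnq3 was 47.3 ± 21.8 CPM in NF-like A1 and at most 7.33 CPM in the other clusters.

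The SST-like cluster L7 held the highest Kcnk4 (TRAAK, a mechanosensitive leak channel) at 120 ± 39.9 CPM and the highest Kcns3, a silent subunit, at 137 ± 34.5 CPM (n = 8). Kcns3 was also highest in the partner A6 (186 ± 74.4 CPM), though it stood apart from the next cluster in neither set. The cold-like cluster L9 had the highest Kcnk2 (TREK-1, a heat- and stretch-gated leak channel, 82.4 CPM), Kcnh8 (27.3 ± 23.2) and Kcnh6 (21.7 ± 6.34 CPM, n = 5). Among added clusters, A7 stood apart in Kcnk15 (145 ± 23.7 CPM against 24.5 ± 4.10 in A1), Kcnh1 of the Eag group (188 ± 58.5 against 83.0 ± 15.2 in A3), Kcnf1 (123 ± 31.5 against 59.3 ± 12.0 in A3) and the inward rectifier Kcnj6 (31.4 ± 10.2 against 3.93 ± 1.499 in A1). The first cluster exceeded the second beyond mean ± SD for 8 members in labelled cells (Kcnf1, Kcng1, Kcnh7, Kcnip4, Kcnj12, Kcnk1, Kcnk18 and Kcnv1) and for 11 in added cells. Among members found in every cluster were Kcna6 (54.5 to 177 CPM over the labelled clusters), Kcnd1 (24.4 to 185 CPM, and 261 to 462 CPM in added clusters), Kcnma1, the BK channel (14.3 to 50.2 CPM), and Kcnh1 (30.2 to 59.5 CPM).

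No potassium channel gene passed the threshold after SNC when all labelled neurons of a sample were summed. Counts were compared with the quasi-likelihood test of edgeR over 14239 genes, called at a Benjamini-Hochberg adjusted p under 0.05, and 55 members passed the filter on low counts (Kcnj5 and Kcnj6 did not). No gene at all was called at 1, 3 or 7 days (0% of the genes tested each time), and 0 members were called. At an unadjusted p under 0.05 the members numbered 7, 3 and 3, beside 1243, 594 and 476 of all genes (8.73%, 4.17% and 3.34%). DESeq2 called 11, 1 and 0 genes, of which 0 were members. The median log2 fold change of the members was 0.0055 at 1 day, 0.0041 at 3 days and -0.040 at 7 days, beside -0.0059, -0.0049 and -0.0061 for all genes. Their median standard errors of 0.44, 0.47 and 0.42 set the size that could be seen. The comparisons share the 4 sham samples, and in bulk sums fewer neurons of a type cannot be told apart from less RNA per neuron.

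At 1 day the member with the lowest p was Kcne3. Its TMM-normalised level was 18.9, 23.8, 48.2 and 23.5 CPM in the sham samples and 42.8, 74.3, 103 and 87.2 CPM at 1 day. Of the 1-day samples, 3 lay above every sham sample and 1 lay below the highest of them, so the groups overlapped. The log2 fold change was 1.41 ± 0.36 (SE), with an adjusted p of 0.518 (edgeR). At 3 days Kcne3 was 25.4, 28.8 and 23.4 CPM, and at 7 days 17.4, 37.8, 53.5, 44.9 and 20.0 CPM, both within reach of sham.

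Kcnn1, an SK channel opened by calcium, was 30.1, 13.4, 10.2 and 4.13 CPM in sham, 5.64, 5.94, 3.19 and 2.39 CPM at 1 day and 4.57, 5.72 and 2.89 CPM at 3 days. The high sham values were those of 3 samples, while the fourth lay among the SNC samples. Those 3 samples were reverse transcribed in an earlier calendar year than the fourth (18) and all 1-day and 3-day samples. Year and group thus nearly coincide in these comparisons (the 7-day samples fell in both years). Sham sample Xin and 7-day sample S were also sequenced in an earlier year than all other labelled samples. They held the highest Kcnn1 of these samples (30.1 and 18.2 CPM), and the part of the sequencing date was not tested. The log2 fold change was -1.70 ± 0.59 at 1 day (adjusted p = 0.534) and -1.67 ± 0.65 at 3 days (adjusted p = 0.966, edgeR). With the year as a term Kcnn1 was at -0.41 ± 0.63 and -0.40 ± 0.66 (adjusted p of 0.874 and 0.869). Kcnf1 was 4.50, 3.08, 4.39 and 1.68 CPM in sham and 1.18, 0.91, 1.43 and 1.66 CPM at 1 day. Every 1-day sample was below every sham sample, with a log2 fold change of -1.39 ± 0.51 (adjusted p = 0.534, edgeR), but the highest 1-day sample and sham sample 18 were nearly level. With the year as a term the fold change of Kcnf1 was -1.44 ± 0.68 (adjusted p = 0.692).

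At 3 days Kcnk15, a two-pore gene, was 10.7, 11.8 and 4.58 CPM against 0.84, 2.90, 0.91 and 7.67 CPM in sham, with 1 sham sample inside the range of the 3-day samples. The log2 fold change was 1.45 ± 0.65 (adjusted p = 0.966, edgeR). Kcnv1 was 17.4, 17.9 and 14.8 CPM at 3 days and 11.3, 43.3, 22.7 and 42.4 CPM in sham (log2 fold change -0.86 ± 0.39, adjusted p = 0.966, edgeR). Sample Xin was below all 3-day samples and the other sham samples above them, and with the year as a term Kcnv1 was at -1.42 ± 0.39 (adjusted p = 0.321). Among PEP1-like and PEP2-like neurons alone the sign of Kcnv1 turned, to 0.40.

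At 7 days Kcnk18 was 5.75, 4.06, 8.90, 1.14 and 15.9 CPM against 17.7, 23.5, 22.1 and 11.9 CPM in sham. The lowest sham sample lay below the highest 7-day sample, so the groups overlapped, and the log2 fold change was -1.40 ± 0.54 (adjusted p = 1, edgeR). Kcnd3 was 12.5, 12.1, 8.09, 9.78 and 14.5 CPM at 7 days and 5.07, 36.3, 21.1 and 26.3 CPM in sham, with sample Xin below all 7-day samples (log2 fold change -0.99 ± 0.40). Kcnh5 was 3.26, 7.56, 6.80, 1.35 and 1.15 CPM at 7 days and 0.56, 2.17, 0.17 and 1.39 CPM in sham (1.84 ± 0.80), and 2 of the 7-day samples lay within the sham range. Both had an adjusted p of 1 (edgeR). The NP-like cluster L6, where Kcnk18 and Kcnd3 were highest, held 6 of 240 cells at 7 days and 19 of 215 in sham, and the part of this in their values was not tested. Among 30 partner genes of potassium channels that passed the filter, such as Dpp6 and Dlg4, 0 were called at any time.

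**Figure D2:**
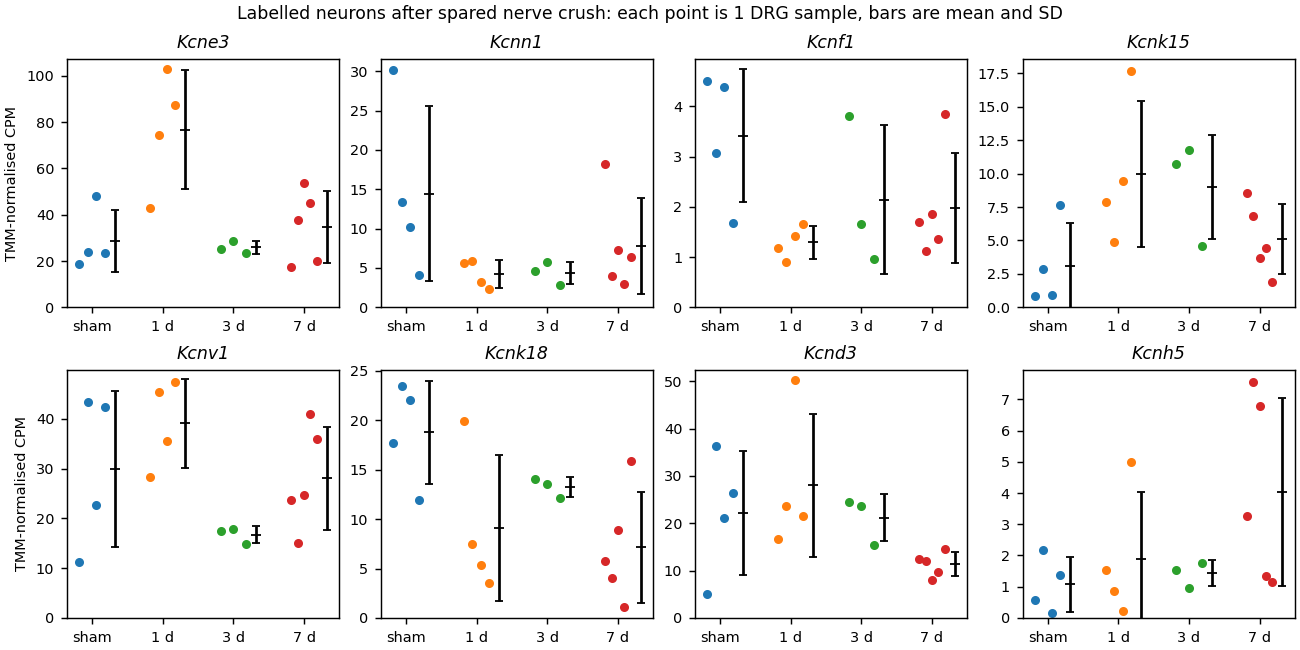
TMM-normalised CPM of 8 potassium channel genes by group (sham and 1, 3 and 7 days after SNC); each point is a DRG sample and the bars are mean and SD. Kcne3 reached 42.8 to 103 CPM at 1 day against 18.9 to 48.2 CPM in sham, and the groups overlap in most panels.

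Within the SNC samples, neurons with high Sprr1a, a gene induced by axon injury, differed from neurons with low Sprr1a in 25 of 45 potassium channel genes tested. Of 715 labelled neurons after SNC, 335 held at least 100 CPM of Sprr1a and 188 under 10 CPM, and the 192 between were left out. The labels count most neurons of sample 19-1 as directly injured and most of sample 19-2 as indirectly injured. The TMM-normalised level of Sprr1a was 54.1 CPM in 19-1 and 130.1 CPM in 19-2. The classes cannot be taken as those of the crushed and the spared branch, and how Sprr1a goes with the branch was not tested. The study's results and methods name opposite dyes for the crushed branches, so the assignment of 19-1 and 19-2 is not certain. The counts of 320 high and 187 low neurons were summed per class in 11 DRG samples with at least 3 cells of both classes, which left out sample 17-1, and were compared within samples (edgeR, DRG sample as a block). Of the members, 8 were higher and 17 lower in Sprr1a-high neurons, beside 16.3% of all 11658 genes higher and 16.4% lower. The median log2 fold change was -0.48 for the members and 0.0024 for all genes. The classes also differed in cluster. L0 and L1 made up 30.6% and 35.9% of the high neurons and 5.88% and 1.60% of the low, while L2, L6 and L7 made up 29.4%, 13.9% and 16.6% of the low neurons and 1.56%, 0.63% and 0.31% of the high. Glial markers summed to 332 to 1364 CPM in the high and 243 to 1162 CPM in the low class, and the median depth was 233271 and 280861 UMIs per cell.

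Among the voltage-gated channels most members called were lower in Sprr1a-high neurons. Kcna2 was 23.2 to 145 CPM (median 72.7) in the high class and 43.4 to 221 CPM (median 136) in the low class over the 11 samples. It was lower in the high class in 11 of 11 samples, with a log2 fold change of -0.90 ± 0.19 (adjusted p = 0.00151, edgeR). Its beta subunits moved the same way in 11 of 11 samples, Kcnab1 by -1.02 ± 0.12 and Kcnab2 by -1.06 ± 0.14. Kcnab1 was 13.7 to 59.8 CPM (median 30.4) in the high and 16.1 to 146 CPM (median 65.2) in the low class. Another Kv1 gene went the opposite way: Kcna6 was 136 to 202 CPM (median 168) in the high and 85.7 to 146 CPM (median 101) in the low class, higher in 11 of 11 samples (0.59 ± 0.07, adjusted p = 1.61e-05, edgeR). Kcna1 (0.40 ± 0.27) and Kcna4 (-0.82 ± 0.37) were not called.

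Kcnc1 (Kv3) was at a median of 2.55 CPM in the high and 12.1 CPM in the low class (-2.06 ± 0.35, lower in 10 of 11 samples). Kcnd1 (Kv4) fell by 0.23 on the log2 scale. Kcnd1 was 97.7 to 189 CPM in the high and 109.9 to 183 CPM in the low class, so its difference was small beside the spread between samples though it was lower in 10 of 11 of them. Of the KChIP subunits, Kcnip4 (-1.32 ± 0.25) and Kcnip3 (-1.495 ± 0.46) were lower and Kcnip1 (0.83 ± 0.25) was higher. The Erg group genes Kcnh6 (-1.78 ± 0.41) and Kcnh7 (-1.47 ± 0.32) were lower in 11 of 11 samples, while Kcnh2 was not called (-0.09 ± 0.16). The M-current gene Kcnq3 was higher (1.37 ± 0.41) and Kcnq5 was not called (0.12 ± 0.17).

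Of 4 silent subunits tested, 3 were lower. Kcns3 was 15.3 to 38.2 CPM (median 22.5) in the high and 26.1 to 133 CPM (median 89.7) in the low class, with a log2 fold change of -1.76 ± 0.21 (adjusted p = 1.35e-05, edgeR) and 10 of 11 samples lower. Kcng1, highest in PEP3-like L2 among labelled clusters, had medians of 0.85 and 58.9 CPM (-3.82 ± 0.80, 9 of 11 samples lower and 1 higher). Kcns1 was lower by a margin that rested on single samples (-1.97 ± 0.72, adjusted p = 0.0492, edgeR), since the call was lost in 9 of 11 fits that left out a sample, all but those without 8 or 14. The call of the BK subunit Kcnmb2 (-0.91 ± 0.30) was lost in 8 of these fits, all but those without 17-3, 19-1 or 19-2.

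The two-pore channels went both ways. Kcnk4 was 19.1 to 41.8 CPM (median 24.8) in the high and 43.3 to 126 CPM (median 59.5) in the low class. The classes did not overlap, and the log2 fold change of -1.23 ± 0.14 had the lowest p of all members (adjusted p = 6.16e-06, edgeR). Kcnk18 had medians of 1.93 and 20.5 CPM (-2.73 ± 0.55, lower in 10 of 11 samples). Kcnk10 (TREK-2) was 22.4 to 43.7 CPM in the high and 13.1 to 26.7 CPM in the low class and higher in 11 of 11 samples (0.72 ± 0.12). Kcnk15 (1.73 ± 0.36) and Kcnk12 (0.71 ± 0.21) were higher as well, and with 1 limit of Sprr1a at 50 CPM Kcnk15 was at 0.76 and no longer called (adjusted p = 0.0911, edgeR). The other members that were higher were the subunits Kcnmb4 (1.00 ± 0.17, in 11 of 11 samples) and Kcne3 (1.11 ± 0.30), and the sodium-activated Kcnt2 was lower (-1.003 ± 0.22). In all, 6 members were lower in every sample (Kcna2, Kcnab1, Kcnab2, Kcnh6, Kcnh7 and Kcnk4) and 3 were higher in every sample (Kcna6, Kcnk10 and Kcnmb4), beside 6.08% and 6.93% of all genes. Of the 25 calls, 22 held in every fit that left out a sample, and 3 (Kcng1, Kcnk18 and Kcns3) also in every other alternative in which they were tested. Kcng1 and Kcnk18 could not be tested within clusters, the alternative that lost most calls. With neurons of 20 CPM or more set against those under 5 CPM, 4 calls were lost, those of Kcnip4 (-0.59), Kcnip3 (-1.40), Kcns1 (-1.32) and Kcne3 (0.90), with adjusted p of 0.134, 0.0695, 0.11 and 0.0595 (edgeR).

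**Figure D3:**
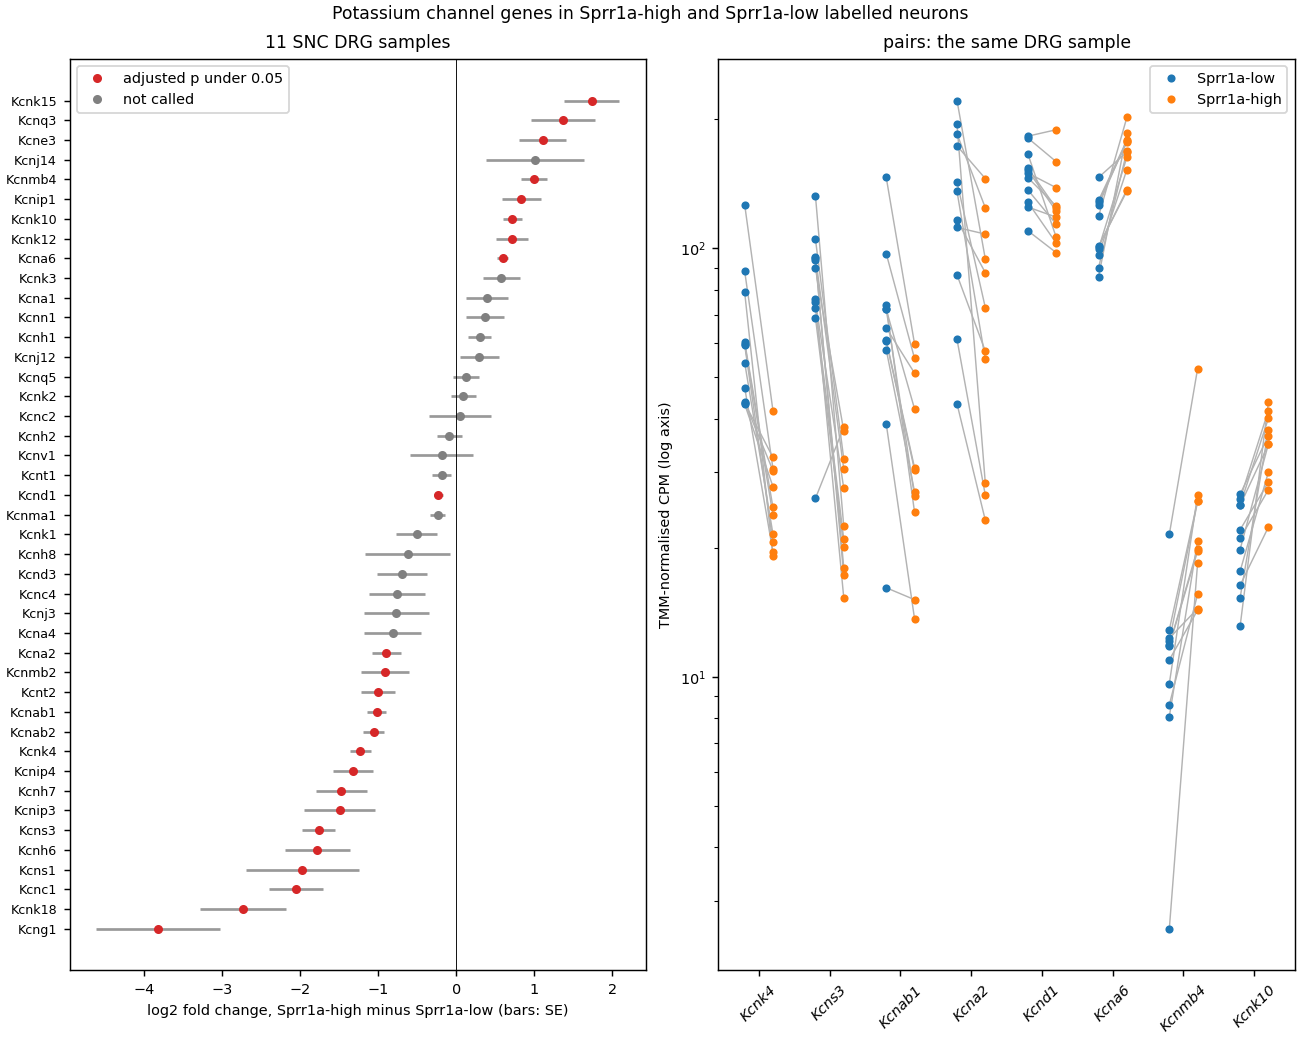
Left, log2 fold change ± SE of 43 of the 45 potassium channel genes tested between Sprr1a-high and Sprr1a-low neurons of 11 SNC samples, with called genes in red. Right, TMM-normalised CPM (log axis) of 8 of them, with lines joining the classes of the same DRG sample; all 11 lines fall for Kcnk4, Kcnab1 and Kcna2 and all rise for Kcna6, Kcnmb4 and Kcnk10.

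Within clusters, 1 of these calls, that of Kcns3, was made again, of 18 that could be tested. Only Kcn genes were kept out of the clustering, so clusters may reflect injury state as well as neuron type. L0 and L1 had a rho of at most 0.232 and 0.175 with any added cluster. Which of these a comparison within clusters keeps equal was not tested. Where classes were compared within a DRG sample and cluster (7 such blocks from 5 samples, treated as separate, so that p-values are too small, with 33 high and 29 low neurons), 32 members could be tested, of which 0 were higher and 2 lower, beside 1.47% and 0.308% of 8765 genes. Those were Kcns3 (-1.83 ± 0.43, adjusted p = 0.0303, edgeR) and the A-type channel gene Kcna4 (-2.41 ± 0.54, adjusted p = 0.0224). At an unadjusted p under 0.05 there were 11 members and 917 of all genes. Within clusters Kcnk4 was at -0.13 ± 0.34 and Kcna6 at 0.20 ± 0.28 (adjusted p of 0.975 and 0.944, edgeR). Other folds stayed about as large without a call: Kcnc1 was at -2.04 ± 0.61 (adjusted p = 0.115), Kcna2 at -1.35 ± 0.42 (0.132), Kcnip1 at 1.07 ± 0.34 (0.15), Kcnab1 at -1.10 ± 0.46 (0.361), Kcne3 at 1.35 ± 0.61 (0.422) and Kcnk10 at 0.72 ± 0.40 (0.614). Few cells entered this comparison, and Kcng1 and Kcnk18 did not pass its filter on low counts.

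The contrast was also made in sham samples, where 78 of 215 labelled neurons were Sprr1a-high. With 3 sham samples (59 high and 93 low neurons), 0 of 48 members were higher and 9 lower (3.03% and 2.56% of 11960 genes): Kcng1, Kcnk18, Kcns3, Kcna4, Kcnip4, Kcnk4, Kcna2, Kcnq5 and Kcnd1. At an unadjusted p under 0.05 there were 25 members and 2367 of all genes. Of the 25 calls made after SNC, 24 could be tested in sham and 7 were made again. Kcns3 was 11.9, 17.7 and 20.7 CPM in the high and 106, 125 and 133 CPM in the low class, without overlap (-2.90 ± 0.21, adjusted p = 0.00291, edgeR). Kcnk4 was 15.9, 17.7 and 27.9 CPM against 55.5, 65.5 and 67.0 CPM (-1.65 ± 0.22, adjusted p = 0.0115). A test of the difference between the SNC and the sham contrast called 0 of 11792 genes and 0 of 48 members (edgeR), with 485 genes and 5 members at an unadjusted p under 0.05. Among 29 partner genes tested after SNC, 6 were higher and 7 lower, with Dpp6 (-0.98 ± 0.15) and Dpp10 (-1.72 ± 0.39), which join Kv4 channels, and Amigo1 (-1.001 ± 0.17), which joins Kv2, among the lower. Rest, a repressor of neuronal genes that include potassium channels, was higher (1.08 ± 0.38, adjusted p = 0.0389, edgeR), from a low level of at most 4.51 CPM.

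Many potassium channel genes were lower in the labelled than in the added sham neurons. Of 57 members, all tested, 25 were lower and 0 higher in labelled sham, beside 24.2% of 15791 genes lower and 16.5% higher (edgeR). At an unadjusted p under 0.05 there were 29 of 57 members and 7812 of 15791 genes, and DESeq2 called 27 members lower and 0 higher, beside 4275 and 3255 of 25672 genes. The median log2 fold change was -1.06 for the members and -0.15 for all genes. In 19 members every labelled sample was below every added library (17.1% of all genes), and in 0 members it was above (10.9%). The labels describe the added libraries as new and give them no date. The sets differ in injury genes: Sprr1a was 67.0 to 316 CPM in labelled sham and at most 0.206 CPM in added sham, and Atf3 373 to 1063 against 75.2 to 183 CPM. They also differ in markers of neuron types. The 7 markers of PEP1 neurons summed to 1165 to 3023 CPM in labelled and 118.6 to 682.6 CPM in added sham, and the 7 of PEP2 neurons to 1077 to 3234 and 219.7 to 339.7 CPM (both lists hold the injury gene Gal), while the 7 of NP neurons overlapped, at 935.1 to 1049 and 849.6 to 2446 CPM. Endothelial markers were low, at 0.44 to 1.91 and 3.24 to 16.9 CPM. Which of these the difference goes with cannot be told apart.

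Both Kv4 genes were lower. Kcnd1 was 85.2, 149.8, 125 and 170.2 CPM in the labelled samples and 291 to 362 CPM (median 332) in the added libraries, without overlap (-1.28 ± 0.16, adjusted p = 0.000121, edgeR). Kcnd3 was 5.03, 37.3, 21.4 and 28.2 CPM against 106 to 361 CPM (median 186; -3.18 ± 0.49). Of their KChIP subunits, Kcnip4 was 14.8 to 57.8 CPM against 117 to 379 CPM (-2.31 ± 0.41), and Kcnip1 was lower by a smaller step (-0.77 ± 0.25, adjusted p = 0.0258).

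Of 5 Kv1 genes, 3 were lower. Kcna4, which with Kv4 carries A-type current, was 1.96, 14.0, 7.15 and 14.1 CPM against 59.97 to 105 CPM (median 79.1; -3.09 ± 0.40, adjusted p = 0.000128, edgeR). Kcna3 was 0.84, 2.42, 2.44 and 2.74 CPM against 10.6 to 121 CPM (-4.54 ± 0.74). Kcna2 was 9.22, 174, 70.4 and 146 CPM against 248 to 512 CPM (-1.82 ± 0.52). No labelled sample reached the lowest added library in any of these genes. Kcna1 (-0.78 ± 0.35, adjusted p = 0.0915) and Kcna6 (-0.23 ± 0.14, adjusted p = 0.217) were not called, and Kcna6 was 111 to 207 CPM against 166 to 196 CPM.

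The silent subunits Kcnf1 (-2.76 ± 0.53) and Kcng2 (-2.54 ± 0.51) were lower, whereas Kcns3 (-0.71 ± 0.47), Kcng1 (0.25 ± 1.05), Kcnv1 (-1.06 ± 0.52) and Kcns1 (-2.75 ± 1.46) were not called. Kcns1 was 0 and 1.19 CPM in libraries S1 and S2 and 46.0 to 229 CPM in the other added libraries, the same split as for NF markers. The Kv3 gene Kcnc4 was called (-1.33 ± 0.29). Kcnh2 was 28.0, 46.5, 21.5 and 41.5 CPM against 90.5 to 293 CPM (-2.003 ± 0.35), and Kcnh6 was lower as well (-1.95 ± 0.42).

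The channels gated by ions were lower in both sodium-activated genes and in 2 of 3 calcium-activated genes. Kcnt1 (Slack) was 22.1, 22.1, 18.3 and 32.4 CPM against 66.4 to 138 CPM (median 82.0; -1.97 ± 0.25, adjusted p = 0.000126, edgeR), and Kcnt2 1.12 to 15.8 against 24.5 to 78.6 CPM (-2.37 ± 0.51). Kcnma1 was 24.0, 45.2, 31.98 and 38.3 CPM against 72.0 to 127 CPM (-1.42 ± 0.20, adjusted p = 0.000214). Kcnn2, at 0.17 to 3.91 against 3.26 to 9.37 CPM, was also called (-1.93 ± 0.64), and Kcnn1 was not (0.32 ± 0.39).

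Of 7 inward rectifiers, 3 were lower. Kcnj11, the pore of the ATP-sensitive channel, was 0.28, 1.02, 0 and 0.43 CPM against 1.54 to 34.8 CPM (median 17.4; -5.50 ± 0.95), and Kcnj5 was 2.24, 0, 0.76 and 0 CPM against 3.23 to 69.1 CPM (median 25.6; -6.09 ± 1.20). The means of Kcnj11 and Kcnj5 were 0.43 and 0.75 CPM in labelled sham and 20.4 and 32.3 CPM in added sham. The set where they are high thus helped them meet the limit for members. Both count among the members called lower and those without overlap. In added cells these genes were highest in few clusters, Kcnj11 in A2 (80.0 ± 19.5 CPM) and Kcnj5 in A3 (110.1 ± 31.5) and A2 (48.4 ± 10.4 CPM). Kcnj12 was 11.53 to 25.3 CPM against 43.3 to 66.3 CPM (-1.51 ± 0.24).

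Most two-pore channels were not called. Their median log2 fold change was 0.0089 over 9 genes, of which Kcnk1 (-1.30 ± 0.38) and Kcnk15 (-1.72 ± 0.60) were lower. Kcnk4 was 41.2 to 56.7 CPM in labelled and 19.1 to 51.7 CPM in added sham (0.33 ± 0.24), and Kcnk10 22.8 to 31.3 against 15.7 to 29.4 CPM (0.27 ± 0.21). Kcnk18 (0.01 ± 0.38) and Kcnk2 (-0.03 ± 0.54) lay near 0, with errors that allow a change of either sign. Members of other families that were called included Kcnab1 (-1.95 ± 0.31) and the M-current gene Kcnq5 (-1.68 ± 0.59).

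**Figure D4:**
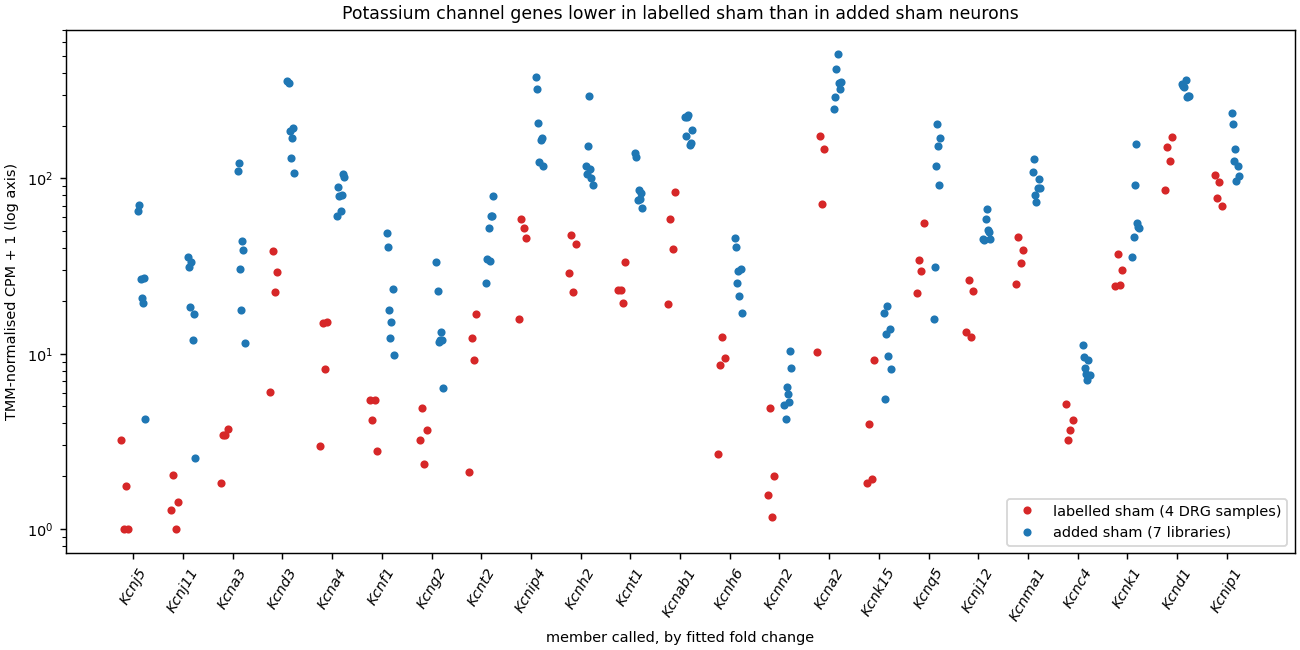
TMM-normalised CPM + 1 (log axis) of 23 of the 25 potassium channel genes called lower in labelled sham neurons, ordered by fitted fold change; red points are the 4 labelled sham samples and blue points the 7 added sham libraries. Kcnd1, at 85.2 to 170.2 CPM against 291 to 362 CPM, has well separated groups, and Kcnj5 and Kcnj11 have labelled samples at 0.

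Narrower comparisons called partly other members. Within the 4 matched pairs of neuron types (74 labelled and 288 added cells of 10 samples, where sums of the same sample were treated as separate, so that p-values are too small), 24 of 45 members were lower and 2 higher, Kcnab2 (0.64 ± 0.23) and Kcnk4 (0.39 ± 0.16), beside 31.7% and 26.4% of 10991 genes. Of the 25 calls 17 were made again, among them Kcna4 (-2.21 ± 0.29) and Kcnd3 (-1.54 ± 0.22), and 3 could not be tested. The 5 lost were Kcnf1 (-0.87 ± 0.46, adjusted p = 0.103), Kcnk15 (-0.79 ± 0.42, 0.103), Kcnc4 (-0.65 ± 0.44, 0.202), Kcnk1 (-0.63 ± 0.29, 0.0663) and Kcnip1 (-0.31 ± 0.33, 0.427; edgeR), and 7 other members were called lower. With only the 93 labelled sham neurons under 10 CPM of Sprr1a, from 3 samples, 22 members were lower, 19 of them among the 25, and 3 higher (17.6% and 12.8% of 15650 genes). Against the added libraries of day 0 alone, 19 were lower, all among the 25, and 0 higher (15.8% and 8.34% of 14106 genes). Of the 25 calls, 16 held in every alternative in which they were tested and 18 in every fit that left out a sample. The call of Kcna2 was lost without sample 10, that of Kcnk1 without sample 10 or Xin, that of Kcnip1 without 10, 18 or 4 and that of Kcnn2 without 10, 18, Xin or S6. Kcnk15 and Kcnq5 each lost it in 7 of these 11 fits, both without 4, 10, Xin, S3 or S4, Kcnk15 also without S1 or S6 and Kcnq5 also without S5 or S7. Among 30 partner genes, 15 were lower and 0 higher, led by Abcc8, the sulfonylurea receptor that pairs with Kcnj11 (0 to 1.96 CPM against 7.59 to 32.3 CPM, -4.43 ± 0.61, adjusted p = 0.000183, edgeR), and Amigo1 (8.38 to 44.8 against 127 to 219 CPM, -2.46 ± 0.34).

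Promoter sequences are shown for the 3 members of lowest p between the sham sets that have an entry, so that the letters behind this group can be read. They come from RefSeq (rat build GRCr8), run from 250 bases before to 50 after a transcript start, and were found for 37 of the 57 members. Capitals mark the GC box GGGCGG on either strand. Kcnt1 has 2 entries on the + strand, at chr3:29081089-29081388 and chr3:29095846-29096145, Kcna4 lies at chr3:114215086-114215385 and Kcnma1 at chr15:351675-351974, both on the + strand.
Kcnt1, first start: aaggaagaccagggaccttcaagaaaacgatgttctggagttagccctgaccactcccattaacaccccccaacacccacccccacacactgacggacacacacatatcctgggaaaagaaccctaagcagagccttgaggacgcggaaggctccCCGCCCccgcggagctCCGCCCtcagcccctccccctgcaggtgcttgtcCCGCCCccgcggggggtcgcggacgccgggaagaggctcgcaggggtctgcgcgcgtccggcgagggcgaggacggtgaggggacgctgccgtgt
Kcnt1, second start: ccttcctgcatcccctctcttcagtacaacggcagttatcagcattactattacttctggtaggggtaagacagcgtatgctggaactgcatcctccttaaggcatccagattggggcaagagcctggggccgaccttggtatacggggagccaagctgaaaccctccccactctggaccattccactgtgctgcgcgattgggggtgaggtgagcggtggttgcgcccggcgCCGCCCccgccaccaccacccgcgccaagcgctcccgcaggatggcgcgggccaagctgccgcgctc
Kcna4: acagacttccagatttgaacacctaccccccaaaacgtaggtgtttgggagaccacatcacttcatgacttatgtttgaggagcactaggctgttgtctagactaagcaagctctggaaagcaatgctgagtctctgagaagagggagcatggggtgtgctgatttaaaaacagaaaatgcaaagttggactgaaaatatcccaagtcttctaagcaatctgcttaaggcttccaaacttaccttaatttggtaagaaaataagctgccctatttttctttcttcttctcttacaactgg
Kcnma1: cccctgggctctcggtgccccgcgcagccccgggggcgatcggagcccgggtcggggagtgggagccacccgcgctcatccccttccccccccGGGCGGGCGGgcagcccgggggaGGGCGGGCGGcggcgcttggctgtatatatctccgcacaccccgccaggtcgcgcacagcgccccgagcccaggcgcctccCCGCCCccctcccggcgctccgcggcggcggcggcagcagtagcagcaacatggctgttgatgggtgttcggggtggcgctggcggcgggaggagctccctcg

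Counted by gene, with a match in any of its starts, the GC box stood in 24 of the 37 members (64.9%) and in 36.0% of all 27457 genes, and in 12 of the 16 members called here that had an entry. The printed Kcna4 promoter had 0 matches, and that of Kcnma1 had 5, of which neighbours overlap. The injury-related AP-1 motif TGANTCA was in 0 of 37 members (8.04% of all genes), and the CRE motif TGACGTCA also in 0 (549 of all genes). The REST part-site TTCAGCACC was in 1, Kcnh6 (111 of all genes). These matches describe the letters in the window and nothing about binding.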

How the data were processed

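STAR (alignment to Rnor_6.0), featureCounts (gene assignment) and UMI-tools (UMI counting) were used by the authors, and the deposited values are raw UMI counts per gene and cell. A cell was kept if it held 500 or more genes, 1000 or more UMIs and a share of 13 mitochondrial genes below 5%. This left 930 of 936 labelled and 503 of 528 added cells. With mitochondrial ribosomal and transfer RNA genes counted too (37 genes), 1288 of all cells passed, 820 of them labelled. Only the comparisons of SNC with sham were also run on those cells. Columns of 2 libraries labelled as the same DRG sample (S) were summed, which gave 16 labelled samples.

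Counts were summed per DRG sample and compared with edgeR 4.0.16 (TMM, filterByExpr, quasi-likelihood test, Benjamini-Hochberg, called under 0.05) in R 4.3.3, after a test on simulated data. DESeq2 1.42.0 was an alternative. The groups came from the labels. Clusters were made with Seurat 5.3.0 without Kcn genes, and no doublet caller was run, since by the labels' protocol single neurons were picked by hand. The potassium channel genes and the lists were chosen with earlier results of these data known. Named genes were the 10 most abundant members, for each type the 2 of highest ratio to other types (from 10 CPM), members called (up to 15 a direction) and the 3 of lowest p at each time after SNC, known excitability genes, those beside the limit, and called partner genes. Kcnj6, Kcnh1, Kcnf1, Kcnj11 and Kcnj5 by added cluster, and genes shared as highest by matched clusters, were added after their values were seen. The years of reverse transcription and of sequencing came from the study's supplement. A few genes counted among the members and partners are not reported here by name or value.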

Additional observations from a re-analysis of the deposited data

Results flagged for a closer look

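Of 67 groups of 4 to 10 samples tested, 5 held a sample whose gap to the others passed Dixon's 95% limit, where chance flags about 1 in 20 groups. Kcne3 stood at 48.2 CPM in sham sample 10, far from the 18.9 to 23.8 CPM of the other sham samples. At 7 days after SNC, Kcnf1 was 3.86 CPM in sample 19-2 (1.12 to 1.86 CPM in the others) and Kcnn1 was 18.2 CPM in sample S (2.91 to 7.28 CPM). Kcna3 was 0.84 CPM in labelled sham sample Xin (2.42 to 2.74 CPM). Kcnh2 was 293 CPM in added library S4 (90.5 to 151 CPM), the library with the highest sum of NF markers.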

How the results depend on the processing

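After SNC the count of called potassium channel genes was 0 in every alternative run, also with each sample left out (0 to 0). With PEP1-like and PEP2-like neurons only, Kcnv1 at 3 days turned to 0.40. Between Sprr1a classes, 8 to 10 members were higher and 14 to 21 lower with a sample left out. Alternatives moved these counts to 0 higher and 2 lower (DRG sample and cluster as the block, which leaves fewer cells), 2 and 6 (cells thinned to 20000 UMIs, where 14 members passed the filter) and 0 and 9 (sham samples only, chosen after seeing the data). Between labelled and added sham, 18 to 28 were lower and 0 to 1 higher with a sample left out. Members called higher numbered 2 within matched neuron types, 1 after thinning and 3 with labelled sham neurons under 10 CPM of Sprr1a only (chosen after seeing the data), while the count lower stayed within 1.5 times of 25. The cause of these moves was not tested. No paired analysis of these groups was run, because the sham and SNC samples share no replicate numbers in the labels, nor do the sham sets. By the study's supplement, sham sample 4 shares its date of reverse transcription with 7-day sample 8. Sham sample 10 shares its date with 7-day sample 9. These dates were not used for pairing. The Sprr1a classes were compared within DRG samples.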
